A study of Mus musculus with 6 samples.

Results

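Mouse melanoma spheroids given BMP2 held less messenger RNA of the collagen IV chains Col4a1 and Col4a2 than spheroids given PBS. Spheroids given BMP2 also held less of Hspg2, which encodes the proteoglycan perlecan. They held more RNA of Col15a1 and, on few reads, of Col18a1, which encode the basement membrane collagens XV and XVIII. Col4a5, a collagen IV chain not among the 10 genes described, lay above Col4a1 and Col4a2 per length of transcript in every library. It had no common direction over the batches. The laminin chain genes Lama4, Lamb1 and Lamc1, the most abundant of the group per length of transcript, had log2 differences between -0.61 and 0.42 in every batch. Of the 10 genes described, 2 passed edgeR's test over all genes when batch entered the model, Col4a1, which fell, and Col15a1, which rose, against 0.735% of all 12929 genes tested. Without batch in the model 0 passed, against 0.0464% of all genes tested. At an unadjusted p under 0.05 there were 5, against 5.38% of all genes, and DESeq2's Wald test called 2, against 1.03% of the genes it gave an adjusted p. The 5 include Col18a1, which passed the filter on low counts only through its BMP2 libraries. The nidogen genes Nid1 and Nid2 differed by more between batches than between treatments. The 10 genes were chosen by name from the 34981 genes of the deposited table, with no threshold on any value. The list was drawn up with earlier results of the same contrast in the same libraries in view, so the differences are a description. The adjusted p values only place each gene among all genes tested and support nothing further.

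The cells were B16F10, a melanoma line of C57BL/6 mouse origin. Cultures began with 500 cells in 50 µl of Matrigel at 7 mg/ml and received BMP2 at 100 ng/ml (3 libraries, BMP2 1 to 3) or PBS (3 libraries, PBS 1 to 3) for 10 days. The libraries with the same number came from the same batch, so each of the 3 batches held 1 culture of either kind, and all cultures shared the cell line and the gel. Matrigel is itself an extract of basement membrane proteins from a mouse tumour, whereas these data count RNA. The labels record no animals, and the line is one established tumour line.

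Basement membranes are thin sheets of matrix that underlie epithelia and ensheath vessels, muscle and nerve. Laminins, trimers of an alpha, a beta and a gamma chain, polymerise at the cell surface, and collagen IV forms a covalently linked network beside them. Nidogens and perlecan bind the 2 networks to each other, and collagens XV and XVIII sit at the edge of the sheet toward the underlying tissue. Tumour cells of the melanocyte lineage adhere to these proteins and cross them when they invade.

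Libraries held between 27821911 and 36856498 estimated counts, of which 4.12% to 4.62% fell on mitochondrial genes. PBS 1 lay farthest out on principal component 1, at -79.7 against -16.8 to 55.5 for the other libraries. Values without it are given below for Col4a1, Col4a2, Col15a1, Col18a1, Hspg2 and the receptor gene Bcam. All 10 melanocyte marker genes were detected, with summed levels of 29260, 39880 and 37480 CPM (counts scaled to library size) in BMP2 1 to 3, against 23850, 26230 and 27010 CPM in PBS 1 to 3. Each of the 10 was higher with BMP2 in all 3 batches, against 22.8% of all genes tested. With batch as a block 1 of them, Gpr143, rose (edgeR adjusted p 0.019), while without the block it did not pass (0.883). Summed endothelial markers lay between 16.2 and 30.6 CPM with BMP2 and between 25.3 and 29.5 CPM with PBS, carried mainly by Vwf and Egfl7, while 5 of the 12, Cdh5, Tek, Esam, Cldn5 and Sox17, were at 0 in all libraries. Summed leukocyte markers lay between 4.66 and 7.06 CPM with BMP2 and between 5.62 and 6.99 CPM with PBS, with 4 of 12 at 0 throughout.

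Known targets of BMP signalling were higher in the BMP2 libraries. Id2, which encodes a repressor of helix-loop-helix factors, was at 186, 438 and 717 CPM in BMP2 1 to 3, against 32.7, 79.9 and 65.6 CPM in PBS 1 to 3. Smad9, a SMAD of the BMP pathway, was at 7.64, 17.0 and 26.4 CPM with BMP2 and at 1.03, 1.43 and 1.10 CPM with PBS. With batch as a block, Id2 and Smad9 rose, with adjusted p of 0.0152 and 0.0241 in edgeR's quasi-likelihood test with Benjamini-Hochberg adjustment. Without the block neither passed, at edgeR adjusted p of 0.21 and 0.0802. Id1, Id3 and Smad6 did not pass in either fit, although for each the 3 BMP2 libraries lay above the 3 PBS libraries. In Id1 the level was 8.55, 22.4 and 26.3 CPM with BMP2 and 3.30, 2.17 and 0.426 CPM with PBS. The difference was thus smallest in batch 1, at 1.35 on the log2 scale, and largest in batch 3, at 5.78.

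Col4a1 and Col4a2 lie head to head on chromosome 8 of the mouse, and their upstream windows are shown because the 2 genes share one stretch of DNA. The windows are RefSeq sequence of GRCm38.p6, from 250 bases before each start site through the first 50 bases of the transcript. Capitals mark the 78 bases that occur in both windows, once on either strand.
Col4a1, chr8:11312777-11313076, minus strand: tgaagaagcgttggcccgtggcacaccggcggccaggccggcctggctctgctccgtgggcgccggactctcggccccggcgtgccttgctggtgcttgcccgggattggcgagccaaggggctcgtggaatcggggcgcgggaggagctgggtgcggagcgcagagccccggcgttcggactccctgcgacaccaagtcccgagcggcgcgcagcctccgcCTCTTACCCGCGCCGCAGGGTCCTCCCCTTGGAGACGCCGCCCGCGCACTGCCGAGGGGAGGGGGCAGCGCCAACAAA
Col4a2, chr8:11312555-11312854, plus strand: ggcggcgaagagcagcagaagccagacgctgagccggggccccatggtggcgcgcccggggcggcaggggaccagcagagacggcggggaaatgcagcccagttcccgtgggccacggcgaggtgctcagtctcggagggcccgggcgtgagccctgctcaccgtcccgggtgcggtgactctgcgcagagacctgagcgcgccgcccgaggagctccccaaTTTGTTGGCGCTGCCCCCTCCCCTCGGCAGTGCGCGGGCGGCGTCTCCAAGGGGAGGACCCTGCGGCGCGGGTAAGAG
The start sites at 11312826 and 11312805 lie 21 bases apart. The gene annotations overlap by 22 bases, and the strand setting of the counting is not given. Of their 31-base words, 0.07% for Col4a1 and 0.24% for Col4a2 also occur in another gene on either strand. An overlap of 22 bases is too short to hold such a word. The GC content of the windows was 74.0% for Col4a1 and 73.7% for Col4a2, against a median of 52.7% over 32817 windows of the same length. The capitals hold 1 match of the GC box GGGCGG, read once from each side. The whole Col4a2 window holds 3 matches of this motif and the Col4a1 window 1. It also occurs in windows of Hspg2 (5 matches), Col18a1 (3, all in 1 window), Lamb1 (2) and Nid1 (1), but not of Col15a1. Of all windows 35.6% hold at least 1, a share not matched for GC content.

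Motifs were searched on both strands in the windows of the 7 of the 10 genes that the table holds, with 2 windows for Col18a1. The palindrome GGCGCC, known to be bound by SMAD1 and SMAD5, occurred once in the window of Col4a1, once in that of Lamb1 and in 2 places in that of Hspg2, against 11.9% of all windows with a match. The GC content was 74.0% in the window of Col4a1, 63.7% in that of Lamb1 and 70.3% in that of Hspg2. The median over all windows was 52.7%, and the share with a match was not matched for GC content. The SMAD box CAGAC occurred in windows of Col4a2, Col15a1, Col18a1 and Lamb1, against 49.6% of all windows. The window of Col15a1 ends at 47208061, upstream of the gene start at 47208161 in the annotation used for positions here. The palindrome GTCTAGAC, found in 0.213% of all windows, and TATAAA, found in 13.6%, occurred in none of them. The CTC box CCCTNCCCC, in 9.47% of all windows, occurred in that of Nid1 alone, and CCAAT, in 37.4% of all windows, in those of Col4a1, Col4a2, Col18a1, Lamb1 and Nid1. No match of one of these motifs overlapped a match of another in these windows, and a match describes letters only. Lama4, Lamc1 and Nid2 are named here without a window.

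Collagen IV is the scaffold of the sheet, and its commonest form joins 2 alpha-1 chains with 1 alpha-2 chain. Col4a1 (ENSMUSG00000031502, GRCm38 chromosome 8, 11198423 to 11312826, minus strand) encodes the alpha-1 chain. Its level was 7.27, 5.73 and 2.18 CPM in BMP2 1 to 3, against 40.6, 21.7 and 7.12 CPM in PBS 1 to 3. PBS 1 was the highest library by far, batch 3 held the lowest library of either treatment, and the groups touched, since BMP2 1 lay just above PBS 3. Within batches the order was the same each time, with log2 differences of -2.47, -1.91 and -1.69 in batches 1, 2 and 3. The means were 5.06 ± 2.61 CPM with BMP2 and 23.1 ± 16.8 CPM with PBS (SD, n = 3 each). In the fit without the block the log2 fold change was -2.20 (SE 0.65) and the adjusted p 0.67 in edgeR's quasi-likelihood test with Benjamini-Hochberg adjustment. With batch as a block Col4a1 fell by 2.05 on the log2 scale (SE 0.22), at an edgeR adjusted p of 0.0241, in place 19 among the 12929 genes tested. With batch 2 left out the blocked adjusted p was 0.0725 and the log2 fold change -2.11, and with PBS 1 left out the unblocked log2 fold change was -1.52. In bulk RNA, fewer cells making a transcript and less of it per cell cannot be told apart, which holds for every difference given here.

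Col4a2 (ENSMUSG00000031503, 11312805 to 11449287, plus strand), the alpha-2 chain, was at 5.32, 6.82 and 2.52 CPM in BMP2 1 to 3, against 19.2, 14.0 and 8.54 CPM in PBS 1 to 3. The lowest PBS library stood above the highest BMP2 library, so the groups did not overlap. The means were 4.88 ± 2.18 CPM with BMP2 and 13.9 ± 5.32 CPM with PBS (SD, n = 3 each), and the log2 differences were -1.84, -1.03 and -1.74 in batches 1, 2 and 3. The log2 fold change was -1.51 (SE 0.44), with an adjusted p of 0.624 in edgeR's quasi-likelihood test with Benjamini-Hochberg adjustment. With the block it was -1.55 (SE 0.24), at an edgeR adjusted p of 0.0503, just beyond the threshold of 0.05. With PBS 1 left out the unblocked log2 fold change was -1.22. With batch 1 or batch 3 left out the blocked adjusted p was 0.0306 and 0.0166, and with batch 2 left out 0.143, in fits with 1 residual degree of freedom.

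**Figure D1:**
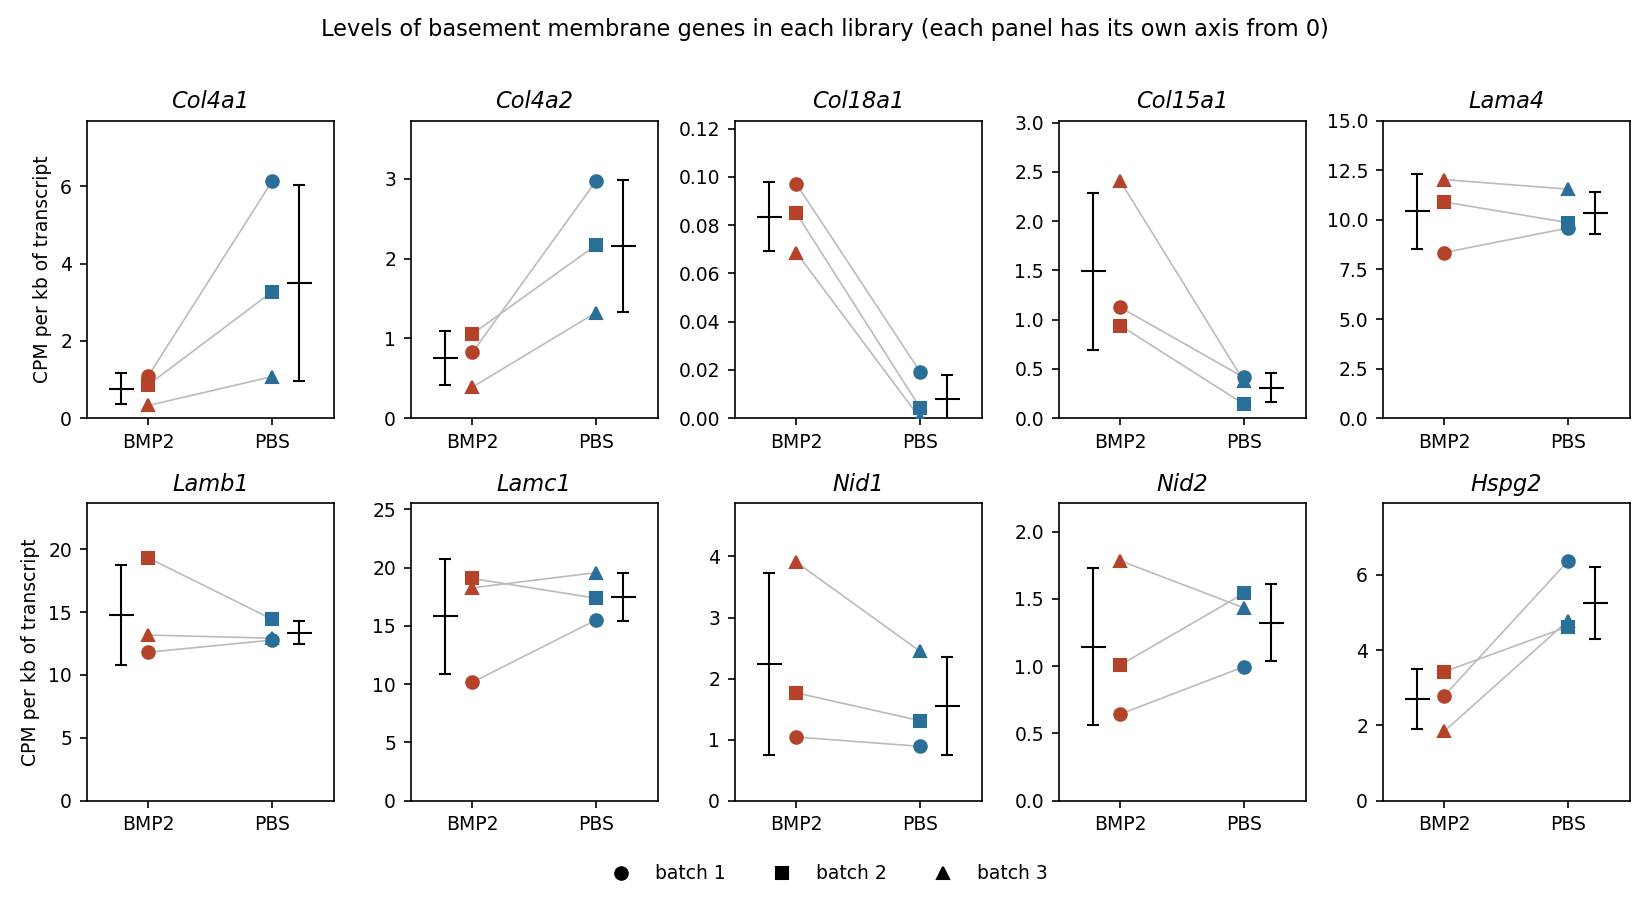
Level of each of the 10 genes in CPM per kb of transcript (vertical axes, each from 0) in BMP2 and PBS libraries, with batches as symbols joined by grey lines, and the mean and SD as black bars, truncated at 0 where they would pass below it. The lines of Col4a1, Col4a2 and Hspg2 lie lower at BMP2 in all 3 batches, those of Col18a1, Col15a1 and Nid1 higher, and those of Lama4, Lamb1, Lamc1 and Nid2 run in mixed directions.

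Per kb of transcript, the level of Col4a1 was 1.33, 0.82 and 0.843 times that of Col4a2 in BMP2 1 to 3, against 2.06, 1.51 and 0.813 times in PBS 1 to 3. This ratio was above 1 in 1 of 3 BMP2 libraries and in 2 of 3 PBS libraries, and it was highest in PBS 1. The 2 chains together summed to 1.92, 1.92 and 0.719 CPM per kb with BMP2 and to 9.11, 5.44 and 2.40 CPM per kb with PBS. Col4a5, the X-linked alpha-5 chain, is named after its values were seen, as the collagen IV chain with the highest level per kb under either treatment. It was at 44.4, 34.7 and 19.5 CPM in BMP2 1 to 3, against 44.0, 26.1 and 22.8 CPM in PBS 1 to 3, with a blocked log2 fold change of 0.07 (SE 0.17, edgeR adjusted p 0.863). Like Col4a1, it was lowest in batch 3 under either treatment, but its groups overlapped. The level of Col4a1 per kb was 0.162, 0.163 and 0.11 times that of Col4a5 with BMP2, and 0.911, 0.819 and 0.309 times with PBS, with no overlap between the groups.

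**Figure D2:**
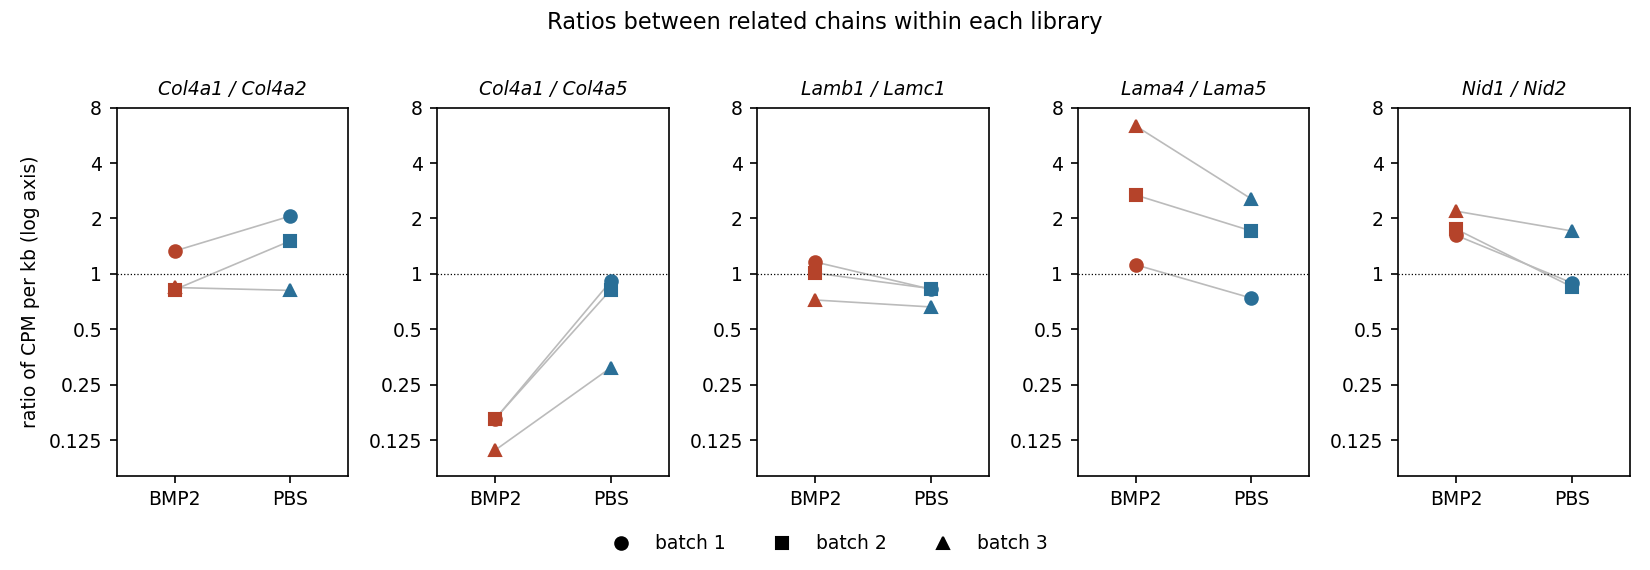
Ratio of the levels of 2 related chains, both in CPM per kb, in BMP2 and PBS libraries (log axis, dotted line at a ratio of 1, symbols for batches joined by grey lines). The ratio of Col4a1 to Col4a5 was at most 0.163 with BMP2 and at least 0.309 with PBS, whereas the other ratios overlapped between the groups.

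Collagens XV and XVIII are heparan or chondroitin sulfate proteoglycans whose C-terminal fragments, restin and endostatin, are known for effects on vessels. Col15a1 (ENSMUSG00000028339, chromosome 4, 47208161 to 47313167, plus strand) was at 5.81, 4.86 and 12.4 CPM in BMP2 1 to 3, against 2.14, 0.735 and 1.94 CPM in PBS 1 to 3. All BMP2 libraries lay above all PBS libraries, with BMP2 3 the highest. The means were 7.71 ± 4.13 CPM with BMP2 and 1.60 ± 0.758 CPM with PBS (SD, n = 3 each), and the log2 differences were 1.41, 2.64 and 2.64 in batches 1, 2 and 3. The log2 fold change was 2.26 (SE 0.53), with an adjusted p of 0.387 in edgeR's quasi-likelihood test with Benjamini-Hochberg adjustment. With the block Col15a1 rose by 2.27 on the log2 scale (SE 0.34), at an edgeR adjusted p of 0.0482, in place 93. The call was lost with batch 2 left out, where the log2 fold change was 2.07 and the edgeR adjusted p 0.2. With PBS 1 left out the unblocked log2 fold change was 2.53.

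Col18a1 (ENSMUSG00000001435, chromosome 10, 77052178 to 77166548, minus strand) rested on few reads. It had 15.9, 16.3 and 15.4 estimated counts in BMP2 1 to 3, against 3.3, 0.9 and 0 in PBS 1 to 3. That corresponds to 0.543, 0.475 and 0.384 CPM with BMP2, against 0.108, 0.0243 and 0 CPM with PBS, so the groups did not overlap and the BMP2 libraries differed little among themselves. Col18a1 passed the filter on low counts only through its BMP2 libraries. The fitted log2 fold change was 3.39 without the block and 3.51 with it, which depends on the prior count because PBS libraries are near 0, and neither fit passed (edgeR adjusted p 0.443 and 0.128). Without PBS 1 the unblocked value was 4.68 (edgeR adjusted p 0.384).

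Laminin chains were the most abundant of the group. In PBS libraries the levels per kb were 17.5 ± 2.03 CPM for Lamc1, 13.4 ± 0.919 for Lamb1 and 10.3 ± 1.06 for Lama4 (SD, n = 3), and every library of each of these 3 genes lay above every library of the next gene in the order. In BMP2 libraries the order was the same, at 15.8 ± 4.92, 14.8 ± 3.99 and 10.4 ± 1.88 CPM per kb (SD, n = 3), but the libraries of Lamc1 overlapped those of Lamb1, and those of Lamb1 overlapped those of Lama4. Lamc1 and Lamb1 encode the gamma-1 and beta-1 chains found in most laminins, and Lama4 the alpha-4 chain, which joins them in laminin-411, a form known from vessel walls.

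Lama4 (ENSMUSG00000019846, chromosome 10, 38965515 to 39110188) was at 50.5, 65.9 and 72.8 CPM in BMP2 1 to 3, against 58.0, 59.6 and 69.8 CPM in PBS 1 to 3. Lamb1 (ENSMUSG00000002900, chromosome 12, 31265234 to 31329644) was at 68.3, 112 and 76.2 CPM with BMP2 and at 73.9, 83.5 and 74.7 CPM with PBS. Lamc1 (ENSMUSG00000026478, chromosome 1, 153218922 to 153332786) was at 77.5, 145 and 139 CPM with BMP2 and at 118, 132 and 149 CPM with PBS. The groups overlapped for all 3 chains, each was lower with BMP2 in batch 1 and higher in batch 2, and BMP2 1 was the lowest library of each. With the block the log2 fold changes were 0.00 for Lama4 (SE 0.13), 0.11 for Lamb1 (SE 0.15) and -0.19 for Lamc1 (SE 0.17), with edgeR adjusted p of 0.587 to 0.995. The sign of each changed in at least 1 of the alternatives given in the closing section, as did those of Nid1 and Nid2. The 3 chains summed to 30.3, 49.3 and 43.5 CPM per kb in BMP2 1 to 3, against 37.9, 41.7 and 44.0 CPM per kb in PBS 1 to 3.

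Lama5, the alpha-5 chain of laminin-511, was set beside Lama4 after its values were seen. It was at 84.8, 46.3 and 21.5 CPM in BMP2 1 to 3, against 148, 65.8 and 51.6 CPM in PBS 1 to 3, lower with BMP2 in every batch, with overlapping groups. Its blocked log2 fold change was -0.85 (SE 0.17), and it did not pass (edgeR adjusted p 0.0927). Per kb, Lama4 was at 1.12, 2.68 and 6.36 times the level of Lama5 with BMP2, and at 0.738, 1.71 and 2.55 times with PBS. This ratio of levels was higher with BMP2 within each batch, highest in batch 3 under either treatment, and its groups overlapped. Lama1, the alpha chain of the laminin in Matrigel, was listed at 0 in all 6 libraries.

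Nid1 and Nid2 encode the nidogens, which link laminin to collagen IV. Nid1 (ENSMUSG00000005397, chromosome 13, 13437551 to 13512269) was at 6.35, 10.8 and 23.8 CPM in BMP2 1 to 3, against 5.42, 7.98 and 14.9 CPM in PBS 1 to 3. Nid2 (ENSMUSG00000021806, chromosome 14, 19751265 to 19811787) was at 3.14, 4.92 and 8.70 CPM with BMP2, against 4.86, 7.52 and 6.99 CPM with PBS. Nid1 was higher with BMP2 by 0.22, 0.43 and 0.67 on the log2 scale in batches 1, 2 and 3, and it was lowest in batch 1 and highest in batch 3 under either treatment. Nid2 was lower in batches 1 and 2 and higher in batch 3. Neither passed in either fit, with blocked log2 fold changes of 0.45 for Nid1 (SE 0.19) and -0.30 for Nid2 (SE 0.27) and edgeR adjusted p of 0.292 and 0.591. The level of Nid1 per kb was 1.62, 1.75 and 2.19 times that of Nid2 with BMP2, and 0.893, 0.85 and 1.71 times with PBS, a ratio chosen after its values were seen. Of their 31-base words, 4.05% for Nid1 and 7.87% for Nid2 also occur in other genes, against at most 0.51% for the other 8 genes, so their counts are a little less certain.

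Hspg2 (ENSMUSG00000028763, chromosome 4, 137468769 to 137570630, plus strand) encodes perlecan, a large heparan sulfate proteoglycan that holds growth factors in the sheet. It was at 39.6, 48.7 and 26.2 CPM in BMP2 1 to 3, against 90.3, 65.6 and 67.9 CPM in PBS 1 to 3. The groups did not overlap, and the closest libraries were those of batch 2. The means were 38.2 ± 11.3 CPM with BMP2 and 74.6 ± 13.7 CPM with PBS (SD, n = 3 each), and the log2 differences were -1.19, -0.43 and -1.37 in batches 1, 2 and 3. Hspg2 did not pass in either fit, with log2 fold changes of -0.97 (SE 0.26) without the block and -0.998 (SE 0.20) with it. The adjusted p were 0.568 and 0.0967 in edgeR's quasi-likelihood test with Benjamini-Hochberg adjustment. With PBS 1 left out the unblocked log2 fold change was -0.81.

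**Figure D3:**
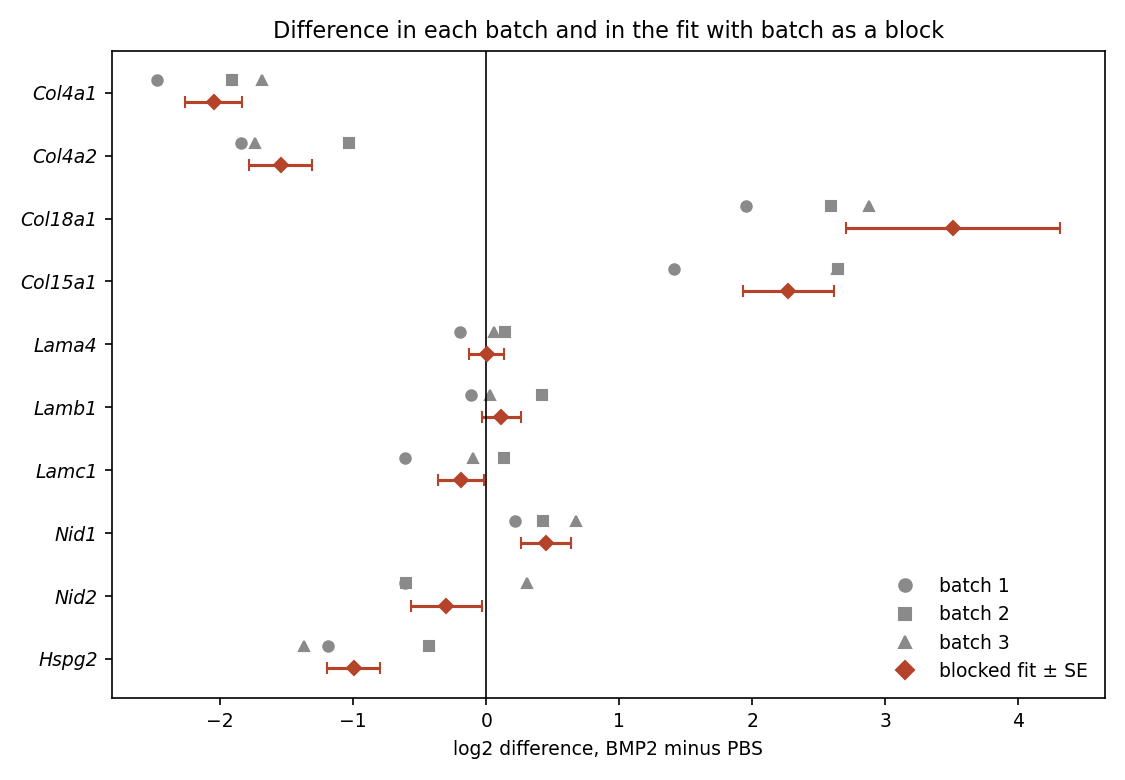
Log2 difference of BMP2 minus PBS for each gene, as grey symbols for the 3 batches and as a red diamond with its SE for the fit with batch as a block. Col4a1, Col4a2 and Hspg2 lie left of 0 in every batch and Col18a1, Col15a1 and Nid1 right of it, and for Col18a1 the fitted value of 3.51 lies beyond the batch values, which were computed with a larger prior count.

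Of the 10 genes, 0 passed without the block, against 0.0464% of all genes tested. At an unadjusted p under 0.05 in edgeR's quasi-likelihood test there were 5 without the block and 6 with it, Col18a1 among them, against 5.38% and 17.0% of all genes. DESeq2's Wald test without the block called 2, Col4a1 and Col15a1, against 1.03% of the genes with an adjusted p, and gave Col18a1 none. With the block 1 rose and 1 fell in edgeR, against 0.735% of all genes called in either direction. All BMP2 libraries lay above all PBS libraries for 2 genes, Col15a1 and Col18a1, against 6.4% of all genes, and below them for 2, Col4a2 and Hspg2, against 5.7%. In each of the 3 batches 3 genes were higher with BMP2, against 22.8% of all genes, 3 were lower, against 21.1%, and 4 were mixed. Since the genes were chosen with this contrast known, nothing is read from these shares. The median log2 fold change was -0.06 without the block and -0.09 with it, against 0.01 over all genes in either fit. Of the fitted values, 5 were above 0 and 5 below.

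The summed level of the 10 genes was 38.0, 58.4 and 54.2 CPM per kb in BMP2 1 to 3, against 55.6, 54.7 and 55.5 CPM per kb in PBS 1 to 3. Of this sum, Col4a1 and Col4a2 took 5.07%, 3.29% and 1.33% in BMP2 1 to 3, against 16.4%, 9.94% and 4.33% in PBS 1 to 3. The laminin chains took 79.9%, 84.3% and 80.2% with BMP2 and 68.0%, 76.1% and 79.4% with PBS, and Hspg2 took 7.36%, 5.87% and 3.41% with BMP2 and 11.4%, 8.45% and 8.63% with PBS. The collagen IV share was lower with BMP2 in every batch and the laminin share higher in every batch, although BMP2 1 held a larger collagen IV share than PBS 3. These shares are parts of one sum, so one can be higher because others are lower. The laminin sum itself was lower with BMP2 in batch 1 (30.3 against 37.9 CPM per kb) and batch 3 (43.5 against 44.0). In batch 2 it was higher (49.3 against 41.7). In PBS libraries Col4a1, at 3.49 ± 2.54 CPM per kb, came in place 5 of the order of levels, after Hspg2 at 5.26 ± 0.962, while in BMP2 libraries it came in place 8, at 0.764 ± 0.395, behind Nid1, Col15a1 and Nid2 (SD, n = 3 each). Neighbours in this order overlapped, apart from the 3 laminin chains, Nid2 above Col15a1 and Col15a1 above Col18a1 in PBS libraries, and Lama4 above Hspg2 and Col4a2 above Col18a1 in BMP2 libraries.

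Fibroblasts are a known source of several of these proteins, and markers of that type were low. Of 12 listed fibroblast markers, 5 passed the filter on low counts, and the summed level of all 12 was 8.32, 4.27 and 6.64 CPM in BMP2 1 to 3, against 11.1, 6.24 and 7.71 CPM in PBS 1 to 3, lower with BMP2 in every batch. Pdgfra made up much of it, at 4.37, 1.66 and 2.05 CPM with BMP2 and at 7.31, 3.09 and 4.16 CPM with PBS. Cspg4 of the same list, a gene not specific to fibroblasts, was higher with BMP2 in every batch. It was at 0.194, 0.397 and 2.01 CPM with BMP2 and at 0.0376, 0.0809 and 0.833 CPM with PBS. Dpt was at 0 in all libraries, and Dcn, Lum, Col1a2 and Col3a1 were each at or below 0.0677 CPM. The part of this sum in the difference of Col4a1, Col4a2 and Hspg2 was not tested. The part of the endothelial, leukocyte and melanocyte sums, and of the position of PBS 1, was not tested either.

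Genes around the group were drawn from lists of other basement membrane components, collagen processing, interstitial matrix and matrix receptors. DESeq2's Wald test without the block called 1 gene of these 4 lists, Hmcn2, and with the block 10, against 1.03% and 5.25% of all genes with an adjusted p. Among 30 other basement membrane genes, 20 were tested and 5 were at 0 in all libraries, and 0 passed in either fit, with 2 at an unadjusted p under 0.05 without the block and 6 with it in edgeR, against 5.38% and 17.0% of all genes. In all 3 batches 4 were higher with BMP2 and 4 lower, against 22.8% and 21.1% of all genes, and the median log2 fold change was 0.08 without the block. The most abundant per kb was Sparc, a collagen-binding matricellular protein, at 2407, 3416 and 1660 CPM in BMP2 1 to 3, against 2753, 1961 and 1396 CPM in PBS 1 to 3, with no common direction. Fbln1, a fibulin, was at 147, 266 and 135 CPM with BMP2 and at 306, 276 and 185 CPM with PBS. Tinagl1, a secreted glycoprotein, was at 88.0, 81.2 and 103 CPM with BMP2 and at 101, 143 and 113 CPM with PBS. Fbln1 and Tinagl1 were lower with BMP2 in each batch. Agrn, the heparan sulfate proteoglycan agrin, was at 89.5, 86.8 and 72.7 CPM with BMP2, against 108, 119 and 114 CPM with PBS, so its groups did not overlap, as for Hspg2. Hmcn2, a hemicentin, was at 2.89, 2.35 and 4.35 CPM with BMP2 and at 1.23, 0.915 and 0.562 CPM with PBS, on the side of Col15a1 and Col18a1. Agrn and Hmcn2 had blocked log2 fold changes of -0.46 (SE 0.13) and 1.80 (SE 0.45) and edgeR adjusted p of 0.187 and 0.15.

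**Figure D4:**
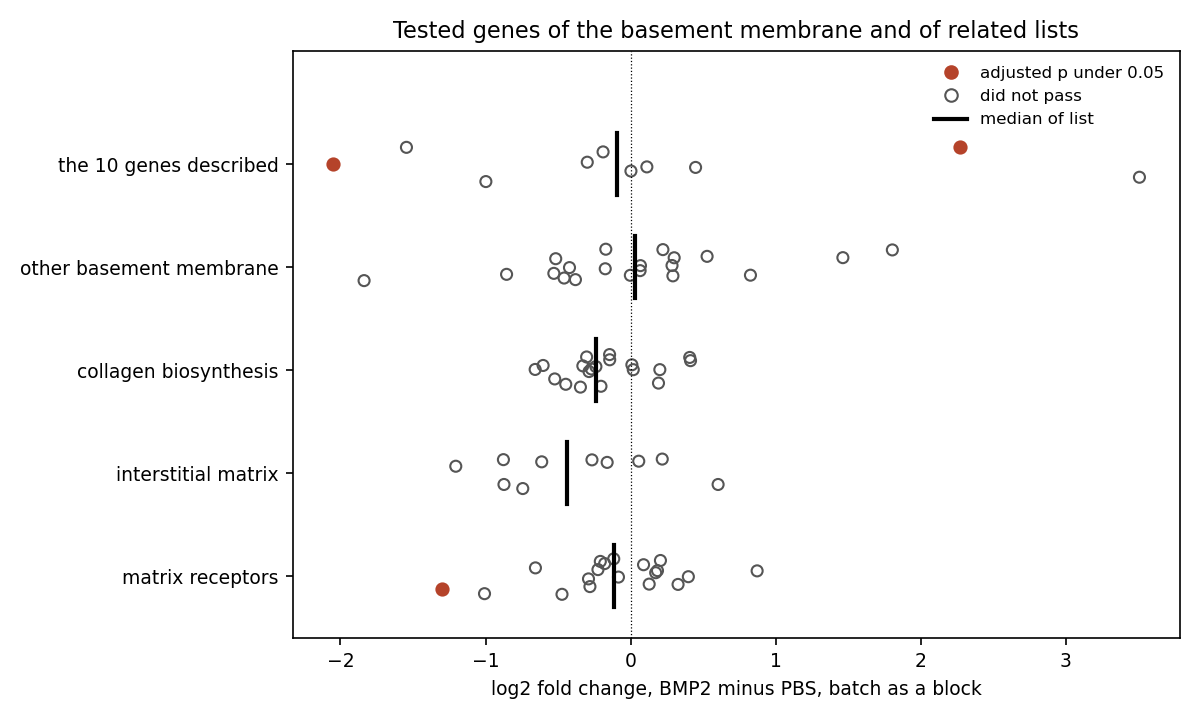
Log2 fold change of BMP2 minus PBS with batch as a block for the tested genes of 5 lists, 1 point a gene, with filled points for an edgeR adjusted p under 0.05 and a black line at the median of each list. Filled points are Col4a1, Col15a1 and the receptor gene Bcam, and the medians lie between -0.44 and 0.03.

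Collagen chains need prolyl and lysyl hydroxylases and chaperones before they leave the cell. Of 22 listed genes of that machinery 19 were tested, and 0 passed in either fit. At an unadjusted p under 0.05 in edgeR there were 0 without the block and 4 with it, against 5.38% and 17.0% of all genes. In all 3 batches 10 were lower with BMP2 and 1 was higher, against 21.1% and 22.8% of all genes. The median log2 fold change was -0.21 without the block and -0.24 with it. P4ha1, a catalytic subunit of prolyl 4-hydroxylase, was at 399, 346 and 209 CPM in BMP2 1 to 3, against 787, 411 and 351 CPM in PBS 1 to 3. Its groups overlapped by 1 library, and PBS 1 was the highest. P3h1, a prolyl 3-hydroxylase, was at 40.8, 53.1 and 38.4 CPM with BMP2 and at 60.2, 59.5 and 47.8 CPM with PBS. Fkbp10, a procollagen chaperone, was at 12.9, 18.3 and 10.5 CPM with BMP2 and at 26.8, 21.5 and 12.8 CPM with PBS. These 3 genes were lower with BMP2 in each batch and did not pass (blocked edgeR adjusted p 0.165 to 0.285).

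Of 32 interstitial matrix genes only 10 were tested, with 3 at 0 in all libraries. In all 3 batches 6 were lower with BMP2 and 1 higher, against 21.1% and 22.8% of all genes. In either fit 0 passed, with 1 at an unadjusted p under 0.05 without the block and 4 with it in edgeR, against 5.38% and 17.0% of all genes. The median log2 fold change was -0.40 without the block and -0.44 with it. Col5a1, a chain of the fibrillar collagen V, was at 30.3, 19.2 and 8.13 CPM in BMP2 1 to 3, against 52.1, 37.5 and 30.4 CPM in PBS 1 to 3. BMP2 1 lay just below PBS 3, so its groups did not overlap, and the blocked log2 fold change was -1.21 (SE 0.24, edgeR adjusted p 0.0933). Col16a1 was at 6.50, 4.87 and 2.81 CPM with BMP2 and at 12.3, 7.51 and 5.99 CPM with PBS. Fn1, fibronectin, was at 79.2, 123 and 62.2 CPM with BMP2 and at 125, 144 and 121 CPM with PBS. Both were lower with BMP2 in every batch, with overlapping groups, and did not pass (blocked edgeR adjusted p 0.149 for Col16a1 and 0.171 for Fn1).

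All 19 listed receptors for these proteins were tested. Without the block 0 passed in edgeR, and with it 1 fell and 0 rose, against 0.0464% and 0.735% of all genes called. At an unadjusted p under 0.05 there were 2 without the block and 3 with it, against 5.38% and 17.0% of all genes. Bcam, a receptor for the laminin alpha-5 chain, was at 8.48, 4.21 and 3.68 CPM in BMP2 1 to 3, against 19.1, 9.94 and 10.4 CPM in PBS 1 to 3. The groups did not overlap, and the log2 differences were -1.16, -1.23 and -1.49 in batches 1, 2 and 3. Bcam fell by 1.30 on the log2 scale with the block (SE 0.19), at an adjusted p of 0.0468 in edgeR's quasi-likelihood test with Benjamini-Hochberg adjustment, against 0.752 without the block. The edgeR adjusted p with the block was 0.226 with batch 2 left out (log2 fold change -1.33) and 0.0516 with batch 3 left out (-1.21). With PBS 1 left out the unblocked log2 fold change of Bcam was -0.91, against -1.27 with all libraries. Sdc3, a cell surface heparan sulfate proteoglycan, was at 32.8, 31.6 and 17.8 CPM with BMP2, against 49.0, 71.5 and 42.8 CPM with PBS, with no overlap and a blocked log2 fold change of -1.01 (SE 0.18, edgeR adjusted p 0.07). Itgb3, the integrin beta-3 chain known from invasive melanoma, was at 68.7, 242 and 52.3 CPM with BMP2, against 46.0, 49.1 and 61.0 CPM with PBS. Its difference rested on BMP2 2 and turned round in batch 3, at 0.58, 2.30 and -0.22 on the log2 scale. The list median was -0.17 without the block and -0.12 with it.

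The genes whose pattern was most like that of Col4a1 were ranked by the root mean square difference of centred log2 CPM over the 6 libraries, among 12087 protein-coding genes. The treatment contrast is part of that measure, so the ranking is a description. The nearest were Pygm (0.315), which encodes muscle glycogen phosphorylase, Ralgps2 (0.366), a Ral exchange factor, Tgm2 (0.412), a transglutaminase, Efhd1 (0.437), a mitochondrial calcium-binding protein, and Frat2 (0.47), a Wnt pathway regulator. Pygm was at 1.86, 1.01 and 0.244 CPM in BMP2 1 to 3, against 7.88, 3.21 and 1.55 CPM in PBS 1 to 3, like Col4a1 highest in PBS 1 and lowest in batch 3 under either treatment. Among the 10 genes Col4a2 came nearest, in place 10 at 0.513, and Hspg2 followed in place 339 at 0.878. Col18a1 and Col15a1, whose levels were higher with BMP2, stood at places 11940 and 12004.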

How the data were processed

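RNA was sequenced from 6 spheroid cultures, 3 with BMP2 and 3 with PBS. Per the labels, libraries were made with Illumina TruSeq from 500 ng of total RNA, and the experiment was done in 3 batches. The deposited values are estimated counts, 1 row a gene, left unrounded by the authors. The submitters' processing notes name kallisto 0.44.0 and GRCm38.p6. Not given in the sources used here are the annotation release, the strand setting and how transcripts were summed to genes, and 0.61% of non-zero values were whole (within 0.001). Identifiers were matched to GENCODE M21 for 34679 of 34981 genes, for symbols, positions and the longest protein-coding transcript.

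Estimated counts were rounded, filtered with filterByExpr and scaled by trimmed mean of M values (TMM). Levels are TMM-scaled CPM, or CPM per kb of that transcript. The 12929 genes left entered edgeR 4.0.16 (R 4.3.3) and its quasi-likelihood test, with treatment alone (4 residual degrees of freedom), Benjamini-Hochberg adjustment over all of them and a threshold of 0.05. Log2 fold changes are BMP2 minus PBS, and the SE is the size of the log2 fold change over the square root of F. The labels say that the number marks a shared batch, so the numbers pair the samples and values with batch as a block (2 residual degrees of freedom) are printed where they matter. Deviations from group means correlated at 0.514, 0.248 and 0.518 between BMP2 and PBS libraries of the same batch. Between libraries of different batches the correlations lay between -0.513 and 0.0265. Deviations cancel within a group, so these correlations are tied together and cannot by themselves establish the pairing. Batch differences used a prior count of 2.

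Alternatives were the block, no filter, DESeq2 1.42.0 size factors and Wald test, and leaving out each library or batch; the block together with each of the other tools was added after the data were seen. Calls were tested on simulated data. The 10 genes and the lists were chosen with earlier results of these data known. The text names the 10 genes, 5 response genes, list genes that passed or had up to 3 of the smallest unadjusted p, the 3 most abundant other basement membrane genes and the 5 genes nearest to Col4a1; Col4a5, Lama5, Lama1, Gpr143 and the marker genes were named after their values were seen. P values measure only the spread between these samples, part of which may be technical. Precision for Col18a1 is limited by counts near 0. Python 3.11.15 drew the figures.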

Additional observations from a re-analysis of the deposited data

How the results depend on the processing

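The log2 fold changes of Col4a1, Col4a2, Col18a1, Col15a1 and Hspg2 kept their direction in all 16 alternatives and passed in 7, 5, 0, 7 and 2 of them. The median over the 10 genes, -0.06, moved by less than its spread between batches (SD 0.29) in all 16. The calls depended on the model. Over all genes 6 passed as reported without the block, 95 with the replicate block, 35 with no filter, 130 with the Wald test, 2 to 10 with a library left out, 531, 27 and 218 with the replicate block and batch 1, 2 or 3 left out, and 500, 98 and 653 with the replicate block plus no filter, size factors or the Wald test. Of the 10 genes, 0 passed as reported without the block, 2 with the replicate block, 2 with the Wald test, 0 with any library left out, 3, 0 and 3 with the replicate block and batch 1, 2 or 3 left out, and 4, 3 and 4 with the replicate block plus the same 3 choices, with Col4a2 joining Col4a1 and Col15a1 under size factors and Col4a2 and Hspg2 under the Wald test. Of the listed matrix genes 0 passed as reported without the block, 1 with the replicate block, 1 with the Wald test, 0 with any library left out, 4, 0 and 1 with the replicate block and batch 1, 2 or 3 left out, and 8, 1 and 10 with the replicate block plus those choices. The cause of these differences was not tested. Lama4, at 0.01 without the block, was -0.00038 with size factors, -0.00025 with the Wald test, and -0.012 with the replicate block plus size factors or the Wald test. With a library left out, it lay between -0.10 and 0.15, Lamb1 between -0.11 and 0.28, Lamc1 between -0.31 and 0.095, Nid1 between -0.15 and 1.03 and Nid2 between -0.68 and 0.077. With the replicate block and a batch left out, Lama4 was -0.065 without batch 2 and -0.028 without batch 3, Lamb1 was -0.038 without batch 2 and Lamc1 was 0.0098 without batch 1. Fits without a batch hold 4 libraries and 1 residual degree of freedom, which makes their calls weak checks. Depth limits Col18a1 most, whose PBS libraries held at most 3.3 estimated counts.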
